A study of Mus musculus with 8 samples.

Results

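The vacuolar proton pump (V-ATPase) and the cathepsins were examined in p53-knockout mouse bone marrow-derived mesenchymal stem cells that carried a luciferase or a cFos retrovirus. Members were chosen by symbol, which had to start with Atp6v or Atp6ap, or to be Cts followed by a single letter. This took 45 of 23503 genes, 27 of the proton pump and 18 cathepsins. Polyadenylated RNA was sequenced from 4 single-cell clones, numbered 2, 4, 8 and 12, each given the luciferase virus (Luc), which served as the control, or the cFos virus, which adds cDNA of an AP-1 transcription factor subunit. All 8 libraries, 4 per arm, therefore shared the p53 knockout and a retroviral transduction, and a name such as Luc 8 stands for the Luc library of clone 8. Each line is 1 clone, with 1 library per clone and virus, so every spread is between clonal lines. The labels do not give the promoter of the virus, the species of the cFos cDNA or the age of the donor mice.

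The V-ATPase is a rotary pump that uses ATP to push protons into lysosomes, endosomes and the Golgi, and in some cells across the plasma membrane. Its soluble V1 sector (subunits A to H) hydrolyses ATP, and its membrane sector V0 (subunits a, b, c, d and e) carries the protons. Several subunits exist as a form made in most cells and as forms restricted to certain tissues. Cathepsins are proteases, many of which work in the acid this pump makes. In bone, osteoclasts place a pump with the a3 and d2 subunits on their ruffled border and secrete cathepsin K, which together dissolve mineral and digest collagen. For the d subunit, Atp6v0d1 is the widespread form, and Atp6v0d2 is found in osteoclasts, macrophages and kidney.

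As a check of the material, Fos itself was at 76.2, 41.1, 302 and 43.5 FPKM in Luc 2, 4, 8 and 12 and at 589, 675, 1019 and 505 in cFos, with no overlap (log2 fold change 3.06, SE 0.58, limma adjusted p = 0.0184, and up to 0.0580 when Luc 2, cFos 2, cFos 4 or cFos 8 was left out). Within the cFos arm the order of Fos, with clone 8 highest, was not that of Atp6v0d2, with clone 8 lowest. Luc 8 was also the highest Luc library for Fos. The log2 difference of Fos, on FPKM plus 0.5, was 2.94, 4.02, 1.75 and 3.52 in clones 2, 4, 8 and 12. That of Atp6v0d2 was 5.73, 4.32, 3.44 and 4.24. Clone 8 thus had the smallest rise of both genes, while the largest was in clone 4 for Fos and clone 2 for Atp6v0d2. A link between the levels of these genes was not tested. Libraries held 6.93 to 9.14 gigabases of sequence on annotated transcripts and 10973 to 11124 genes at 1 FPKM. Stromal markers summed to 6188 to 11624 FPKM, mostly Vim, Col1a1, Col1a2 and Cxcl12. Other genes of this list were low in many libraries. Thy1 was at 0.0916 to 23.8 FPKM over the 8 libraries, Nt5e at 0.167 to 7.94, Eng at 0.258 to 2.12 and Lepr at 0.0314 to 1.39. Of the 9 stromal markers tested, 2 rose (Vim and Pdgfrb), 1 fell (Cxcl12) and 6 did not pass. With the clone as a block Cd44 also rose. Among all tested genes 2.92% were called higher and 2.62% lower, and 4.51% and 4.28% with the block. The call of Pdgfrb ended without any library but Luc 4 or cFos 12 (0.0762 to 0.129), and that of Cxcl12 without cFos 2 (0.0558). Summed levels of the lymphoid, endothelial, and neutrophil and mast cell lists stayed at or below 1.31, 0.432 and 5.11 FPKM, the last mostly Kit, at 4.71 in Luc 2. The lymphoid sum was 0.0192 to 0.204 in Luc and 0.611 to 1.31 in cFos, mostly Gzmb (0.560 to 1.28 in cFos). What part these levels had in the results was not tested.

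Atp6v0d2 rose in the cFos libraries of all 4 clones. It was at 0.00897, 0.286, 0.0915 and 0.0440 FPKM in Luc 2, 4, 8 and 12, and at 26.5, 15.2, 5.90 and 9.76 in cFos 2, 4, 8 and 12 (FPKM scales fragments by transcript length and library depth, so it is a level per length). Every Luc library lay below 1 FPKM and every cFos library above 5, with no overlap. Clone 2 held both the lowest Luc and the highest cFos value. The log2 fold change, taken here and below on FPKM plus 0.5, was 4.43 (SE 0.40, limma adjusted p = 8.46e-04). By clone it was 5.73, 4.32, 3.44 and 4.24 in clones 2, 4, 8 and 12. The pseudocount understates a change that starts so near 0, and in bulk RNA more cells of a type and more RNA per cell cannot be told apart. The authors' deposited confidence limits reached at most 0.394 FPKM in a Luc library and were at least 5.39 in a cFos library. The transcript is listed on chromosome 4 from 19803985 to 19849713 in mm9. A gene was tested when it reached 1 FPKM in at least 4 of the 8 libraries, and Atp6v0d2 passed through the cFos arm alone, so that it had to differ to be tested. Over all genes with any signal, with no such filter, its adjusted p was 0.00576.

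Its widespread counterpart did not pass the test. Atp6v0d1 (chromosome 8, 108048370 to 108089940) was at 70.7, 84.0, 72.4 and 55.5 FPKM in Luc 2, 4, 8 and 12 and at 62.1, 74.7, 64.0 and 44.2 in the cFos libraries of the same clones. The cFos value was the lower in each of the 4 clones, with log2 differences from -0.32 in clone 12 to -0.17 in clone 4, while the arms overlapped (log2 difference -0.21, SE 0.19, limma adjusted p = 0.581). Atp6v0d2 therefore made up 0.0127%, 0.339%, 0.126% and 0.0792% of the summed d-subunit FPKM in Luc 2, 4, 8 and 12, and 29.9%, 16.9%, 8.44% and 18.1% in cFos. In log2 units the ratio of Atp6v0d2 to Atp6v0d1 was -6.88 ± 0.20 in Luc and -2.23 ± 0.87 in cFos (SD, n = 4). The difference was 4.64, with an exact two-sided permutation p = 0.0286 over the 70 arrangements of libraries, and an exact p = 0.125 over the 16 exchanges within clones. Neither design, with 4 libraries per arm, can reach a lower p. The arms of Atp6v0d2 were already apart, and Atp6v0d1 stayed between 44.2 and 84.0 FPKM. The ratio therefore repeats the separation of Atp6v0d2, and these p-values add no separate support. The size of the difference depends on the pseudocount, at 6.29 with 0.1 and 3.82 with 1.

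**Figure D1:**
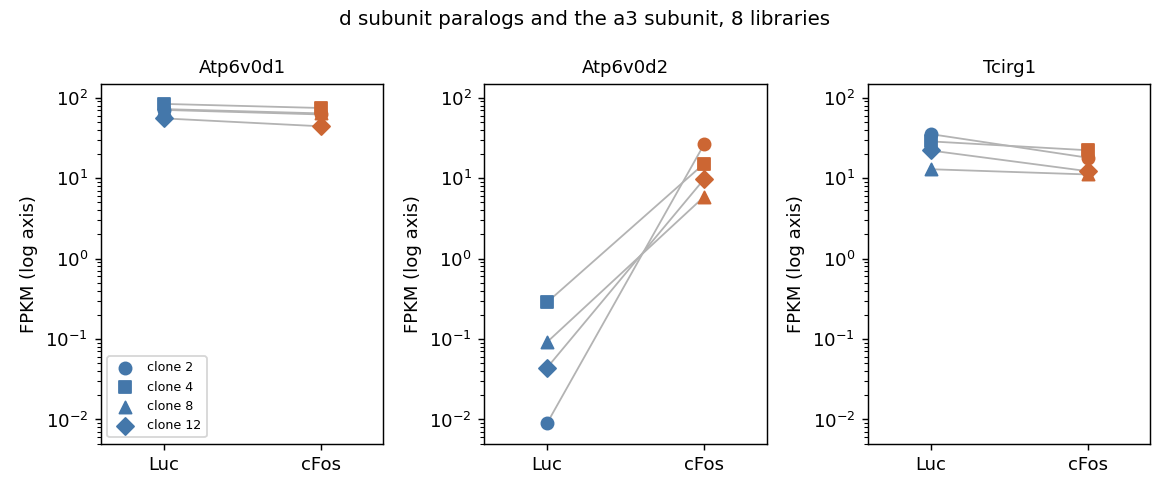
FPKM on a log axis of Atp6v0d1, Atp6v0d2 and Tcirg1 in Luc (blue) and cFos (orange) libraries, with 1 point per library, a marker shape per clone and grey lines joining the arms of a clone. Atp6v0d2 goes from at most 0.286 in Luc to at least 5.90 in cFos, while Atp6v0d1 stays between 44.2 and 84.0 in all 8 libraries.

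Markers of osteoclasts, the bone-resorbing cells in which Atp6v0d2 is best known, differed from one another in level and direction. In 5 of the 13 listed genes no library reached 1 FPKM, and Calcr, the calcitonin receptor, and Dcstamp, which osteoclasts need to fuse, stayed at or below 0.0190 and 0.0159. Of the 5 that could be tested, 2 rose, none fell and 3 did not pass. Among all tested genes 2.92% were called higher and 2.62% lower. Of these 5 markers, 3 are also pump or cathepsin genes (Atp6v0d2, Ctsk and Tcirg1), and Atp6v0d2 had to differ to be tested. Besides Atp6v0d2 the rise was that of Nfatc1, the transcription factor that drives osteoclast formation. It was at 7.51, 10.4, 5.69 and 11.5 FPKM in Luc 2, 4, 8 and 12 and at 26.2, 23.4, 24.2 and 20.9 in cFos (log2 fold change 1.43, SE 0.21, limma adjusted p = 0.00605). Its arms did not overlap. Acp5, the tartrate-resistant phosphatase of osteoclasts, reached 1 FPKM in only 2 libraries, both cFos, and so was not tested. It was at 0.256, 0.0405, 0.0440 and 0.284 FPKM in Luc and at 1.24, 0.956, 0.352 and 2.49 in cFos. Mmp9, a matrix protease of osteoclasts, was also not tested and had the opposite order, at 0.465, 0.537, 1.61 and 1.31 FPKM in Luc and at 0.223, 0.0965, 0.0428 and 0.621 in cFos, lower in each clone. The summed FPKM of the list was 44.3 to 92.2 in Luc and 60.5 to 91.1 in cFos. It was mostly Ctsk, Tcirg1 and Nfatc1 in Luc, and mostly these with Atp6v0d2 in cFos. Macrophage and monocyte genes, 11 of which are in the tables, summed to 2.69 to 4.01 FPKM in Luc and 1.76 to 2.64 in cFos, with Tyrobp and C1qa listed at 0 in every library. The cFos sum was mostly Cd14, at 0.902 to 2.69 in Luc and 1.35 to 2.30 in cFos, which did not pass. Lyz2 (means 0.828 and 0.0676) and Mpeg1 (0.424 and 0.0162), not tested, were lower in cFos in each clone. Csf1r (0.205 and 0.257), also not tested, was higher in 2 clones and lower in 2. The part of these levels in the rise of Atp6v0d2 was not tested.

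The a3 subunit, which pairs with d2 in osteoclasts, went the other way in level. It is encoded by Tcirg1, whose symbol the rule does not take. Tcirg1 was at 35.4, 28.7, 12.9 and 22.1 FPKM in Luc 2, 4, 8 and 12 and at 17.996, 22.3, 11.1 and 12.2 in cFos. Each cFos value was below the Luc value of its clone, but the arms overlapped and the difference did not pass (log2 difference -0.59, SE 0.32, limma adjusted p = 0.355, and 0.0738 with the clone as a block). Tcirg1 held 38.2 ± 7.75% of the summed a-subunit FPKM in Luc and 30.5 ± 5.35% in cFos (SD, n = 4). The other a forms made in many tissues were steadier. Atp6v0a1, the form enriched in neurons, was at 21.1 ± 7.09 and 18.3 ± 3.98 FPKM, and Atp6v0a2, of Golgi and endosomes, at 16.6 ± 1.70 and 16.8 ± 1.91. Atp6v0a4, the a form of kidney and inner ear, did not reach 1 FPKM in any library.

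The remaining tissue-restricted subunits were low in both arms. Atp6v1g3 of kidney and Atp6v1e2 of testis were listed at 0 in all 8 libraries, and Atp6v1b1, the B form of kidney and inner ear, and Atp6v1c2 stayed below 0.1 FPKM. The widespread form gave at least 98.3% of its family's FPKM in every library for the B, C, E, G and e positions. Atp6v1g2, the G form of brain, was at 0.875, 0.759, 0.943 and 1.05 FPKM in Luc 2, 4, 8 and 12 and at 0.320, 0.417, 0.407 and 0.439 in cFos. Its arms did not overlap, but 1 library at 1 FPKM left it outside the filter. With no filter it was lower in cFos by 0.65 on the log2 scale (SE 0.10, limma adjusted p = 0.0221). The authors' limits overlapped in clone 4, at 0.523 to 0.995 in Luc and 0.243 to 0.592 in cFos. Within clones 2, 8 and 12 they did not. Atp6ap1l was at 0.0772 to 0.119 FPKM in Luc and was listed at 0 in all 4 cFos libraries. It was also called lower with no filter, but the authors' limits reach 0 in Luc 8 and Luc 12, so a fall is not shown. These 2 were the members called lower in cFos of the 38 with any signal, where 0.933% of all 18753 genes were called lower and 1.53% higher.

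**Figure D2:**
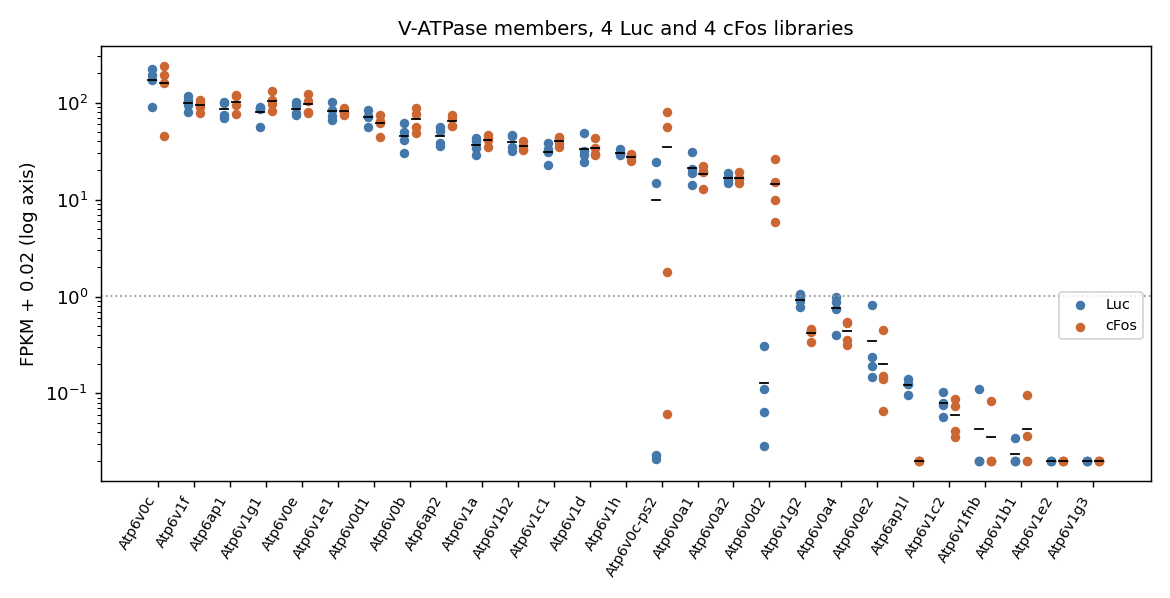
FPKM plus 0.02 on a log axis of the 27 proton pump members in 4 Luc (blue) and 4 cFos (orange) libraries, ordered by mean level, with 1 point per library, black bars at the arm means and a dotted line at 1 FPKM. The widespread subunits lie in the upper part of the plot in both arms, and Atp6v0d2 is the member whose arms lie on either side of the line in all 8 libraries.

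The widespread pump subunits were abundant, and none passed the test in the fit without a block, while Atp6ap2 did with the clone as a block (described below). All 16 of them were tested, with means over the 8 libraries from 16.7 (Atp6v0a2) to 165 FPKM (Atp6v0c, the proton-carrying rotor ring). Their median log2 difference was 0.04, and all 11162 tested genes had a median of -0.06. The differences ran from -0.25 to 0.56, with standard errors from 0.11 to 0.51, and a subunit that missed the threshold is not shown to be equal in the arms. Summed over the V1 subunits, FPKM was 472.6, 492.5, 359.1 and 403.3 in Luc 2, 4, 8 and 12 and 497.7, 487.0, 432.2 and 417.2 in cFos. The sums overlapped, and clone 8 had the lowest Luc value.

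By sector, the 3 most abundant pump members after summing transcripts were Atp6v0c, described below, Atp6v1f and Atp6ap1. Atp6v1f, a subunit of the central stalk, was at 107, 117, 79.3 and 94.6 FPKM in Luc 2, 4, 8 and 12 and at 99.4, 107, 90.9 and 79.0 in cFos (log2 difference -0.07, SE 0.16, limma adjusted p = 0.836). Atp6ap1, an accessory subunit that helps V0 assemble, was at 101, 98.9, 68.9 and 74.0 in Luc and at 116, 119, 94.4 and 77.1 in cFos (0.24, SE 0.19, adjusted p = 0.529). Both had overlapping arms, and clone 8 was lowest in Luc. In the catalytic head, Atp6v1a, whose product binds ATP for hydrolysis, had 36.4 ± 6.10 FPKM in Luc and 41.3 ± 5.05 in cFos, and its partner Atp6v1b2 had 39.4 ± 7.31 and 35.4 ± 3.50 (SD, n = 4). In the stalks, Atp6v1e1 had 81.4 ± 15.4 and 81.0 ± 5.53, Atp6v1g1 had 80.1 ± 16.5 and 105 ± 21.4, and Atp6v1d had 33.2 ± 10.3 and 33.9 ± 6.29. Atp6v1h, which holds back ATP hydrolysis in free V1, had the smallest error of the widespread subunits, at 30.6 ± 1.78 and 27.7 ± 1.79 FPKM (log2 difference -0.14, SE 0.11). Atp6v0e, a small membrane subunit, had 86.8 ± 12.8 and 96.6 ± 21.0.

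Of the 28 tested members, 18 of the pump and 10 cathepsins, 1 rose, none fell and 27 did not pass in the limma fit over all genes. Over all genes 2.92% were called higher and 2.62% lower. At an unadjusted p under 0.05, 4 members differed, all higher in cFos (Atp6v0d2, Atp6ap2, Ctsb and Ctsc), where 9.06% of all tested genes were higher and 11.1% lower. In the fit that blocks on clone, 2 members rose and none fell, beside 4.51% and 4.28% of all genes. The second was Atp6ap2, the accessory subunit also known as the prorenin receptor (chromosome X, 12164885 to 12194177). Atp6ap2 was at 56.2, 51.2, 35.7 and 38.8 FPKM in Luc 2, 4, 8 and 12 and at 75.2, 68.7, 57.4 and 56.9 in cFos. The lowest cFos library stood just above the highest Luc library, and the ratio of cFos to Luc was 1.34 in clones 2 and 4, 1.61 in clone 8 and 1.47 in clone 12. The log2 fold change was 0.52, with a limma adjusted p = 0.137 without the block (SE 0.18) and 0.0355 with it (SE 0.11).

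Other pump genes were higher in the cFos library of every clone without passing. Among the 28 tested members 9 had the higher value in cFos in all 4 clones, where 15.3% of all tested genes did, and 1 had the lower value in all 4 (Atp6v0d1), where 20.9% did. With the libraries scaled to a common median these were 10 and 1 of 28, beside 18.4% and 17.3% of all genes. The 9 were Atp6v0d2, Atp6ap2, Atp6ap1, Atp6v0b, Atp6v1a, Atp6v1c1, Atp6v1g1, Ctsb and Ctsd. Atp6v0b, a rotor ring subunit, was at 50.1, 61.1, 29.9 and 41.6 FPKM in Luc 2, 4, 8 and 12 and at 87.9, 77.1, 55.6 and 48.9 in cFos (log2 difference 0.56, SE 0.26, limma adjusted p = 0.258). Atp6v1c1, the stalk subunit that takes part in joining V1 to V0, was at 33.4, 38.2, 22.7 and 30.7 in Luc and at 44.1, 43.3, 38.5 and 34.7 in cFos (0.38, SE 0.17, adjusted p = 0.259). In both genes the arms overlapped. Arms that did not overlap, with cFos higher, were found for 3 of the 28 (Atp6v0d2, Atp6ap2 and Ctsb) beside 5.86% of all tested genes, and none of the 28 had the reverse, beside 7.80%. Atp6v0d2 passed the filter through the cFos arm alone, so once tested it had to be among both the 9 and the 3.

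**Figure D3:**
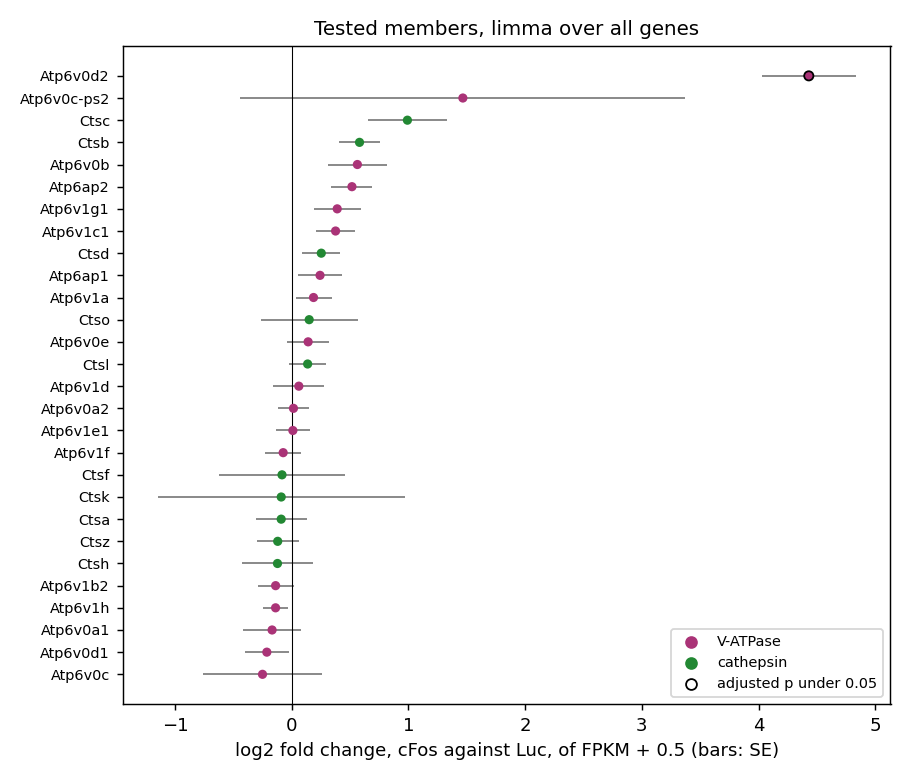
Log2 fold change of cFos against Luc on FPKM plus 0.5 for the 28 tested members, with bars of 1 SE, pump members in purple and cathepsins in green, and a black ring for an adjusted p under 0.05. Atp6v0d2, at 4.43, carries the only ring, and the widest bar belongs to Atp6v0c-ps2.

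The c subunit could not be read as a single gene. Atp6v0c (chromosome 17, 24300833 to 24306374) was at 170, 223, 90.7 and 195 FPKM in Luc 2, 4, 8 and 12 and at 193, 240.3, 160 and 44.9 in cFos. A transcribed pseudogene, Atp6v0c-ps2, is listed over nearly the same bases (24300832 to 24306340), although RefSeq places it on another chromosome in GRCm38. Of the 50-base runs in its GENCODE transcript, 88.0% also occur in Atp6v0c. The pseudogene entry was at 24.4, 0.00130, 14.9 and 0.00328 FPKM in Luc and at 56.3, 1.78, 0.0413 and 80.2 in cFos, highest in cFos 12, where Atp6v0c was lowest. Their sums were 195, 223, 106 and 195 in Luc and 249, 242, 160 and 125 in cFos. The log2 difference was -0.25 for Atp6v0c alone (SE 0.51) and 0.11 for the sum. Without cFos 12 it was 0.28 for Atp6v0c alone, so its sign also rested on that library. How the reads were split between these entries was not tested.

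Among members with several RefSeq transcripts, Atp6v0a1 had 4 entries on chromosome 11. The leading one was at 15.8, 11.7, 11.2 and 6.52 FPKM in Luc 2, 4, 8 and 12 and at 13.7, 12.3, 12.2 and 8.85 in cFos. A second was at 13.003, 7.51, 6.94 and 6.85 in Luc and at 7.46, 6.402, 6.50 and 3.33 in cFos, so every clone had its lower value with the cFos virus. The gene's log2 difference was -0.17 over all entries and 0.10 over the leading entry alone, and neither passed.

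The cathepsins were led by 4 proteases of broad expression. Ctsb, Ctsd, Ctsl and Ctsz together held 74.2% to 85.9% of the summed cathepsin FPKM in the 8 libraries. Ctsd, the main aspartic protease of lysosomes, was at 208, 179, 197 and 163 FPKM in Luc 2, 4, 8 and 12 and at 282, 219, 226 and 174 in cFos (log2 difference 0.25, SE 0.16, limma adjusted p = 0.426). Ctsl, a cysteine endopeptidase, was at 164, 228, 149 and 182 in Luc and at 205, 198, 168 and 219 in cFos (0.14, SE 0.16, adjusted p = 0.679). Ctsz, a carboxypeptidase, was at 186, 210.3, 173 and 151 in Luc and at 213, 183, 146 and 129 in cFos (-0.12, SE 0.18, adjusted p = 0.760). The arms overlapped in each of these genes. The 10 tested cathepsins had a median log2 difference of 0.03, with 5 higher and 5 lower, and their summed FPKM was 846 ± 62.7 in Luc and 941 ± 157 in cFos (SD, n = 4).

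Ctsb, a cysteine protease that cuts both within chains and from their ends, was the one tested cathepsin whose arms did not overlap (chromosome 14, 63741299 to 63764760). It was at 125, 129, 122 and 140.05 FPKM in Luc 2, 4, 8 and 12 and at 265, 191, 142 and 194 in cFos. The Luc libraries lay close together, and cFos 8 stood just above them. Ratios of cFos to Luc were 2.11, 1.48, 1.16 and 1.38 in clones 2, 4, 8 and 12, and the difference did not pass (log2 difference 0.58, SE 0.18, limma adjusted p = 0.106, and 0.0771 with the clone as a block). Without cFos 8 the adjusted p was 0.0468. Ctsc, the dipeptidyl peptidase that activates granule proteases, was at 1.16, 2.86, 1.28 and 2.75 FPKM in Luc and at 5.28, 2.55, 6.59 and 3.54 in cFos. Ratios of cFos to Luc were 4.54 and 5.14 in clones 2 and 8 but 0.894 and 1.28 in clones 4 and 12 (log2 difference 0.99, SE 0.34, adjusted p = 0.138).

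**Figure D4:**
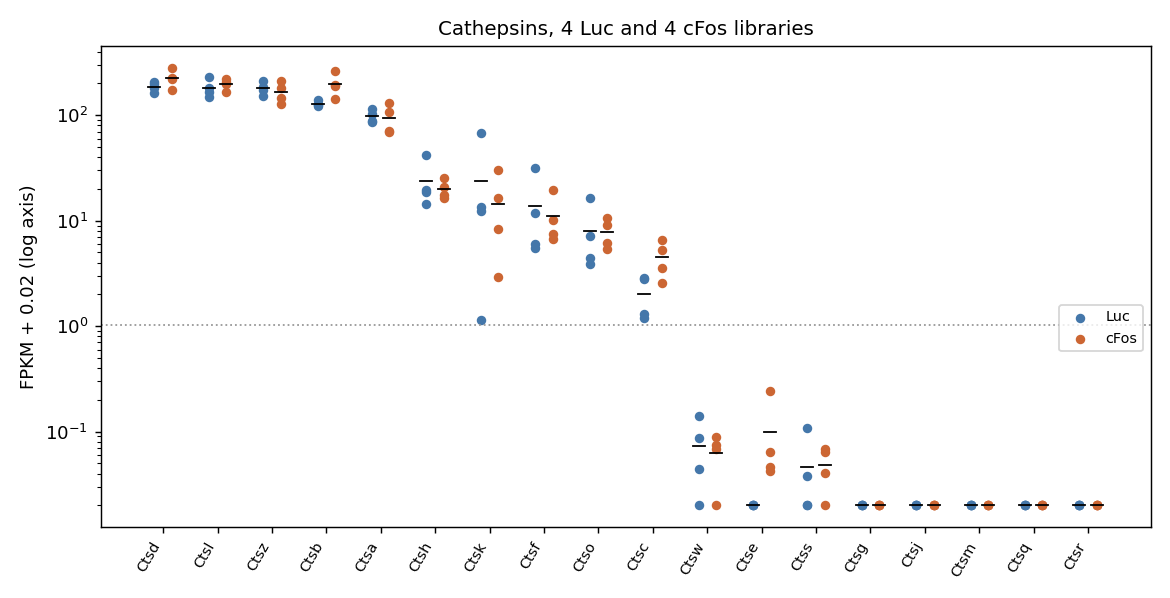
FPKM plus 0.02 on a log axis of the 18 cathepsins in 4 Luc (blue) and 4 cFos (orange) libraries, ordered by mean level, with 1 point per library, black bars at the arm means and a dotted line at 1 FPKM. The 10 tested genes lie above the line in every library and the other 8 below it, and Ctsk spreads most among the tested genes.

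The cathepsins of blood cells and placenta were at or near 0. Ctsg, a granule protease of neutrophils, and the placental Ctsj, Ctsm, Ctsq and Ctsr were listed at 0 in all 8 libraries. Ctss, of antigen-presenting cells, Ctsw, of cytotoxic lymphocytes, and Ctse did not reach 0.3 FPKM in any library. Altogether 17 members were not tested, 9 of the pump and 8 cathepsins, and 7 of the 45 were listed at 0 throughout.

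Ctsk, the collagen-digesting protease of osteoclasts that fibroblasts also make, differed between clones more than between arms. It was at 13.3, 1.13, 67.5 and 12.4 FPKM in Luc 2, 4, 8 and 12 and at 16.2, 2.89, 30.5 and 8.24 in cFos (chromosome 3, 95303208 to 95313284). Clone 8 was highest and clone 4 lowest in both arms. The arms gave a log2 difference of -0.09 (SE 1.06, limma adjusted p = 0.976), with cFos higher in clones 2 and 4 and lower in clones 8 and 12. The clone terms of a model of arm plus clone missed the threshold (limma F test, adjusted p = 0.0609). Ctso was likewise highest in clone 8 in both arms (16.3 FPKM in Luc 8 and 10.7 in cFos 8), and Ctsh, an aminopeptidase, highest in clone 4 (42.4 in Luc 4 and 25.4 in cFos 4). Ctsf was highest in clone 8 among Luc libraries (31.7) and in clone 2 among cFos libraries (19.7). By this F test 0 of the 28 members passed, beside 0.484% of all genes, and 10 had an unadjusted p under 0.05, beside 16.5% of all genes.

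**Figure D5:**
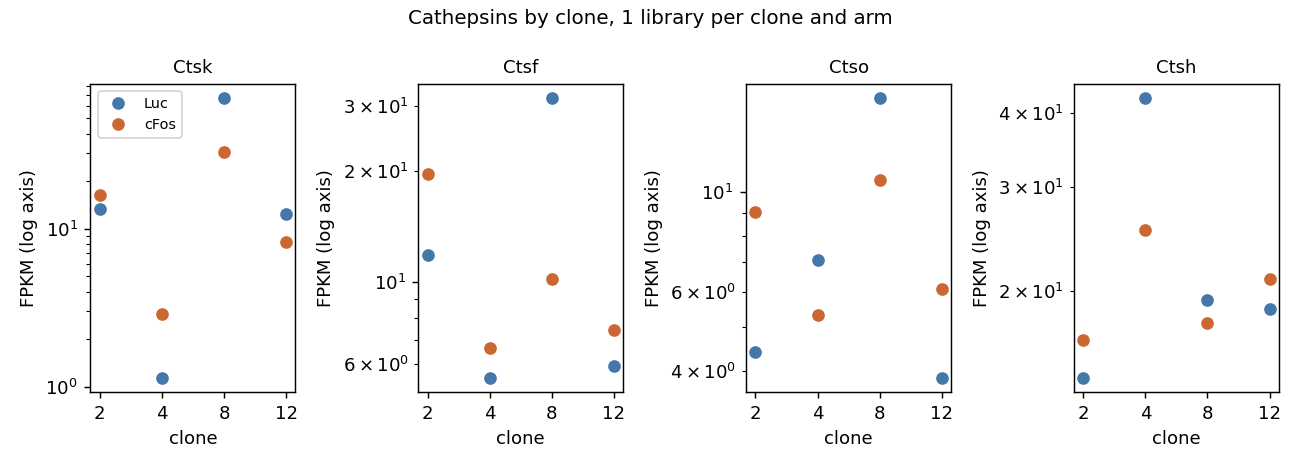
FPKM on a log axis of Ctsk, Ctsf, Ctso and Ctsh by clone, with 1 Luc (blue) and 1 cFos (orange) library per clone. Ctsk runs from 1.13 in Luc 4 to 67.5 in Luc 8 and keeps clone 8 highest and clone 4 lowest in both arms.

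Genes around the pump and the proteases mostly did not pass. Of 14 tested V-ATPase parts and assembly factors outside the rule, 17 lysosomal membrane proteins, 37 other lysosomal hydrolases and cofactors, 18 MiT-TFE factors (the transcription factors of lysosomal genes) with their controllers, and 15 enzyme-sorting genes, none was called in either direction. Their median log2 differences were -0.06, -0.05, -0.07, 0.17 and -0.15. Arms did not overlap, with cFos higher, for Ids, Asah1, Mitf and Fnip2, beside 5.86% of all tested genes. The reverse held for Tmem9, Galns, Ppt2 and M6pr, beside 7.80%. A gene that missed the threshold is not shown to be equal in the arms. Among all tested genes 2.92% were called higher and 2.62% lower, and 4.51% and 4.28% with the clone as a block. With the clone as a block Ids, which removes sulfate from glycosaminoglycans, rose (20.6 ± 2.05 to 29.3 ± 3.09 FPKM, adjusted p = 0.0335), and Npc2, which carries cholesterol out of lysosomes, fell (110.3 ± 20.4 to 78.8 ± 11.7, adjusted p = 0.0485).

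Of 6 tested cathepsin inhibitors 1 rose, 1 fell and 4 did not pass, beside 2.92% of all tested genes called higher and 2.62% lower. Serpinb1a, an inhibitor of neutrophil serine proteases including cathepsin G, was at 7.16, 2.96, 4.55 and 8.78 FPKM in Luc 2, 4, 8 and 12 and at 47.7, 27.9, 118 and 29.0 in cFos, with no overlap (log2 fold change 2.98, SE 0.48, limma adjusted p = 0.00923). Ctla2a, which inhibits cathepsin L-like proteases, fell from 2.85, 11.7, 2.30 and 2.31 to 0.464, 0.193, 0.161 and 0.958 (-2.24, SE 0.50, adjusted p = 0.0337), and its call ended without Luc 2, cFos 2, cFos 4 or cFos 8 (0.0681 to 0.0949). It reached 1 FPKM in the Luc libraries alone, so that it had to differ to be tested, and with no filter its adjusted p was 0.0786. Cystatin C, the main secreted inhibitor of cysteine cathepsins (Cst3), was at 407 ± 111 and 362 ± 109 FPKM and did not pass. With the clone as a block Serpinb6a also rose (177 ± 49.4 to 314 ± 38.4, adjusted p = 0.0370).

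Start-site sequences were searched for the letters by which MiT-TFE factors and AP-1 are known to bind, since the former are regulators of lysosomal genes and the latter holds the transduced cFos. RefSeq windows of 300 bases (250 before and 50 after a start, GRCm38.p6) matched 33 of the 45 members, with 37 windows. Atp6v0d2, Atp6v0a2, Atp6v0c-ps2, Atp6v1b2, Atp6v1c1, Atp6v1g1, Atp6v1h, Atp6ap1l, Ctsb, Ctse, Ctsh and Ctsw had no entry. TCACGTGA, which reads the same on both strands, was in 5 windows of 5 members, and in 0.974% of all 32851 windows. The shorter CACGTG, which every TCACGTGA contains, was in 8 windows of 8 members, and in 7.15% of all. The AP-1 letters TGACTCA, searched on both strands, were in 0 of the 37 and in 5.20% of all. The 5 windows are shown on the strand of the gene with TCACGTGA in capitals, because 5 widely expressed members have these letters in common. None of them was called between the arms, but the only called member, Atp6v0d2, had no window. No count of letters here can therefore be set against a call.
Atp6v0d1: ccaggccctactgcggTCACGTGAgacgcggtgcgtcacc
Atp6v0e: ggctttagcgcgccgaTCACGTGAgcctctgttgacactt
Atp6v1a: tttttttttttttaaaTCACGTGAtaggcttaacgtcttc
Ctsa: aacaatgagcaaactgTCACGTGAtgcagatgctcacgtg
Ctsd: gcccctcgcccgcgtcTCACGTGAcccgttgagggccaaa
The Atp6v0d1 stretch is chr8:105566045-105566084 on the minus strand, that of Atp6v0e chr17:26676382-26676421 on the plus strand, that of Atp6v1a chr16:44139368-44139407 on the minus strand, that of Ctsa chr2:164833744-164833783 on the plus strand and that of Ctsd chr7:142387903-142387942 on the minus strand. The letters lay across or just after the start in Atp6v0d1 and Atp6v0e and before it in the others, from position -13 in Ctsa, -99 in Ctsd and -132 in Atp6v1a. The Ctsa stretch also ends in a further CACGTG, which was left in lower case. A match of letters is a description and no binding was measured.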

How the data were processed

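Polyadenylated RNA of 8 cultures was sequenced. The submitters' processing notes name CASAVA 1.8.2, TopHat, Cufflinks and the mouse build mm9, while TopHat and Cufflinks versions and options were not given in the sources used here. Each table, per the file headers, gives, for 30769 RefSeq transcript entries, FPKM with confidence limits, and coverage (a signal of mean depth per base, not normalized). The deposited limits are the only intervals on single values, since read counts were not used here.

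From these the following was computed. Entries were named from a RefSeq table (30227) or GENCODE M21 (180), 362 stayed unnamed, and FPKM was summed per symbol. Depth was coverage times length. Arms were compared by limma 3.58.1 under R 4.3.3 (lmFit, eBayes with trend) on log2(FPKM + 0.5), two-sided, with Benjamini-Hochberg adjustment over all 11162 genes at 1 FPKM or more in at least 4 libraries, and a threshold of 0.05. The 3 genes with a failed status in any library were left out. Python 3.11.15 with pandas 2.3.3 handled the tables, and the code was tested on simulated data. Coordinates are mm9 from the tables, counted from 1, unless another build is named.

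The members, the lists and the tests were chosen with earlier results of these data known. Library values are given for called members, for those called with the clone as a block, for the d pair and for the 3 pump and 3 cathepsin members of highest mean FPKM; of each list up to 3 called genes are named. Members outside this rule, such as Atp6v1g2, Atp6ap1l, Ctsb, Ctsc, Ctsk, Atp6v0b and Atp6v1c1, and list genes named for their values, were chosen after their values were seen. Same-numbered libraries come from the same clonal line, so the numbers pair them. Deviations from the arm means correlated within clones 2, 4, 8 and 12 by 0.174, 0.593, 0.349 and 0.437. Each comparison was also fitted with clone as a blocking factor.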

Additional observations from a re-analysis of the deposited data

Results flagged for a closer look

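One value stood apart from the other libraries of its arm. Atp6v1g1, the widespread G subunit of the pump's peripheral stalk, was at 55.5 FPKM in Luc 8, while Luc 2, 4 and 12 held 87.2, 86.7 and 91.1, a gap of 0.877 of the range. This was 1 of 58 sets of 4 values checked, and chance alone marks about 1 in 20.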

How the results depend on the processing

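The results were recomputed with no filter, with a 5 FPKM minimum, with a pseudocount of 0.1 or 1, after scaling to a common median, with the clone as a block, with no variance trend, with the leading transcript alone, without each library in turn and, added after the data were seen, Atp6v0c summed with Atp6v0c-ps2. Atp6v0d2 stayed called higher in all 17 (log2 fold change 3.61 to 6.08, adjusted p up to 0.00576), as did Nfatc1 (up to 0.0278) and Serpinb1a (up to 0.0371). Members called higher numbered 1, but 2 with the clone as a block (Atp6ap2) and 1 to 2 when a library was left out (Ctsb without cFos 8). Members called lower numbered 0, but 2 with no filter (Atp6v1g2 and Atp6ap1l). The block changed no other call of a member. Over all genes, 326 higher and 293 lower became 503 and 478 with the block and 150 to 319 and 85 to 295 when a library was left out, and 175 were lower with no filter. Lower counts arose without Luc 2 (147), cFos 2 (85), Luc 4 (172), cFos 4 (101) or cFos 8 (138), and fewer higher without cFos 2 (150) or cFos 4 (190). The ratio of Atp6v0d2 to Atp6v0d1 had an exact permutation p of 0.125 with exchange within clones, for the same difference of 4.64, differences of 4.30 to 5.01 without 1 library, 6.29 with a pseudocount of 0.1 and 3.82 with 1. With no filter, the adjusted p was 0.0540 for Fos, 0.0786 for Ctla2a, 0.0765 for Pdgfrb and 0.0721 for Vim. With no variance trend it was 0.0531 for Pdgfrb. The cause was not tested.

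Of the members that did not pass, some changed sign. Atp6v0a1 was at 0.10 with the leading transcript, and Atp6v0c at 0.11 when summed with its pseudogene. When 1 library was left out, log2 differences ran from -0.34 to 0.031 for Atp6v0a1, -0.052 to 0.076 for Atp6v0a2, -0.53 to 0.28 for Atp6v0c, -0.073 to 0.25 for Atp6v1d, -0.078 to 0.12 for Atp6v1e1, -0.18 to 0.0098 for Atp6v1f, -0.26 to 0.037 for Ctsa, -0.40 to 0.43 for Ctsf, -0.32 to 0.19 for Ctsh, -1.04 to 0.75 for Ctsk and -0.094 to 0.56 for Ctso. These fits had no clone block, so leaving out 1 library also left its clone in the other arm alone. The cause of the changes of sign was not tested.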
